A study of Mus musculus with 8 samples.

Results

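RNA polymerase I is the enzyme that copies the ribosomal RNA genes. The genes described here encode 5 of its subunits (Polr1a, Polr1b, Polr1c, Polr1d and Polr1e) and 5 factors that bring it to those genes (Rrn3, Taf1a, Taf1b, Taf1d and Ubtf). They form a list of 10 symbols put together by function, drawn up with earlier results of these data known. A gene counted as measured where a transcript cluster, the array's unit of summary, was annotated to that gene alone. This held for 9 of the 10 genes, among 30701 genes measured in all. The cluster of Taf1d, a subunit of the promoter selectivity factor, also names a microRNA and a predicted gene, so Taf1d has no value of its own.

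Ribosomal RNA is made in the nucleolus, where RNA polymerase I transcribes a single long precursor that is cut into the RNAs of both ribosomal subunits. UBTF shapes the DNA of active ribosomal RNA genes, selectivity factor 1 (TBP with the TAF1 proteins) marks their promoter, and RRN3 ties the polymerase to that promoter. In the mouse embryo this transcription is silent after fertilisation and resumes around the 2-cell stage, when the embryo's own genome is switched on.

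RNA came from pools of 100 mouse embryos (B6C3F1 x CD1) collected late in the 2-cell stage, on 8 Affymetrix whole-transcript arrays in 4 groups of 2 pools. Non-manipulated embryos stayed in the incubator. A second group received Trim21 mRNA in the ooplasm at the pronuclear stage, another Trim21 mRNA with an antibody against COPS3, and the last the antibody without the mRNA. TRIM21, a ubiquitin ligase, recognises antibodies inside cells and marks both them and their target protein for the proteasome, and COPS3 belongs to the COP9 signalosome, an enzyme complex that takes NEDD8 off cullin ubiquitin ligases. The protocol gives zygotes from stimulated females, cultured in the same medium for 28 h after injection, where the age label has 24 h. It describes the first 3 groups only, so the antibody-alone group is known from the sample titles and the design text. The labels describe cleavage as normal without the antibody and as stunted, with many embryos left undivided, in the antibody groups. The groups were treated on separate days, both pools of a group on the same one, so group and day cannot be told apart, and every p below measures the spread between pools of the same day only. No group received a control antibody, so an effect of any injected antibody and loss of COPS3 cannot be told apart. In pools, fewer embryos or cells that carry a transcript and less of it per cell cannot be told apart either.

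The transcript injected was present where the labels place it. Trim21 stood at a log2 level of 9.77 and 10.14 with Trim21 mRNA and at 10.40 and 10.30 with mRNA plus antibody, against 5.65 to 6.76 in the other 4 pools. Cops3 mRNA, which the method does not target, lay between 8.85 and 10.00 in all pools. It fell by 0.76 ± 0.16 with mRNA plus antibody against Trim21 mRNA (adjusted p = 0.017, limma) and was at −0.66 ± 0.16 with antibody alone against non-manipulated embryos (adjusted p = 0.053). The median level of all clusters ran from 4.75 to 4.90 in the pools without antibody and from 4.86 to 5.29 in those with it, and 136 to 169 clusters shared the array's highest value on 3 arrays (both with mRNA plus antibody and antibody-alone replicate 1). The antibody-alone pools stood apart from each other: 4615 genes (15.0%) differed more than 2-fold (1 on the log2 scale) between them, against 49 to 809 genes between pools in each other group. Oocyte and 2-cell transcripts were abundant in every pool, with a mean level of 12.65 to 13.75 over 8 oocyte genes and 9.43 to 11.15 over 6 of 7 genes of the 2-cell burst. Markers of cumulus, sperm, oviduct and blood cells had mean levels of 4.56 to 5.56, close to the array medians. A difference is between group means of the log2 level, printed ± SE. That SE is limma's estimate from the spread within all 4 groups (2 pools in each), whichever groups are compared. A gene was called where its Benjamini-Hochberg adjusted p over all genes was under 0.05.

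The largest subunits, which together form the active centre of the enzyme, were both lower wherever the antibody was present. Polr1a (transcript cluster TC0600000839.mm.1), the largest subunit, stood at 9.75 and 9.73 in the non-manipulated pools and at 9.87 and 9.79 with Trim21 mRNA. It stood at 7.22 and 7.15 with mRNA plus antibody and at 6.52 and 7.07 with antibody alone. All 4 antibody pools therefore lay below all 4 pools without it, and the lowest was antibody-alone replicate 1. Polr1b, the other catalytic subunit, was at 10.04 and 10.20 in the non-manipulated pools, 9.99 and 9.93 with Trim21 mRNA, 7.39 and 7.67 with mRNA plus antibody and 7.46 and 7.95 with antibody alone. Again the 4 antibody pools lay below the other 4, and the groups with antibody overlapped each other. The share of all genes with every antibody pool below every other pool was not counted, for these genes or those below.

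Polr1c and Polr1d form the platform on which the enzyme is assembled, and RNA polymerase III uses both as well. Polr1c levels were 12.79 and 12.55 in the non-manipulated pools, 12.78 and 12.55 with Trim21 mRNA, 9.68 and 10.02 with mRNA plus antibody and 11.31 and 11.80 with antibody alone. The antibody-alone pools thus lay between the pools without antibody and those with mRNA plus antibody, without overlap. Polr1d levels were 8.76 and 8.60, then 8.79 and 8.48, then 7.61 and 7.41, and with antibody alone 7.65 and 7.59, in the same order of groups. The antibody pools lay below all others but did not separate from each other. Polr1e, a subunit of the heterodimer that helps the enzyme start, stood at 10.68 in both non-manipulated pools, at 10.81 and 10.72 with Trim21 mRNA, at 7.63 and 7.87 with mRNA plus antibody and at 8.29 and 9.30 with antibody alone.

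The factors that recruit the enzyme were lower in the mRNA plus antibody group too, but not all of them with antibody alone. Rrn3, the initiation factor, was at 13.67 and 13.43 in the non-manipulated pools, 13.54 and 13.52 with Trim21 mRNA, 11.31 and 11.19 with mRNA plus antibody and 11.51 and 12.68 with antibody alone. Taf1a, of the selectivity factor, was at 12.55 and 12.48, at 12.50 and 12.21, at 9.86 and 9.87 and, with antibody alone, at 10.39 and 11.15. For both genes every antibody pool lay below every pool without it, and the antibody-alone pools were far apart. Taf1b, the selectivity factor subunit that contacts RRN3, was at 11.96 and 11.98 in the non-manipulated pools, 11.86 and 11.78 with Trim21 mRNA and 9.42 and 9.39 with mRNA plus antibody. With antibody alone it was at 12.63 in replicate 1, above all other pools, and at 11.02 in replicate 2, below the pools without antibody. Ubtf, the architectural factor, was at 11.42 and 11.34 in the non-manipulated pools and at 11.88 and 11.85 with Trim21 mRNA. It was at 9.55 and 9.47 with mRNA plus antibody and at 9.86 and 9.81 with antibody alone. Its 4 groups did not overlap and differed little within. The groups of Polr1a and Polr1e did not overlap either, but their nearest pools without antibody were at 9.75 and 9.79 and at 10.68 and 10.72. The share of all genes with 4 separate groups was not counted. With Trim21 mRNA, Ubtf, Polr1a and Polr1e lay above the non-manipulated pools, and the share of all genes doing so was not counted. In the other direction, 26.9% of all genes lay lower without overlap.

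**Figure D1:**
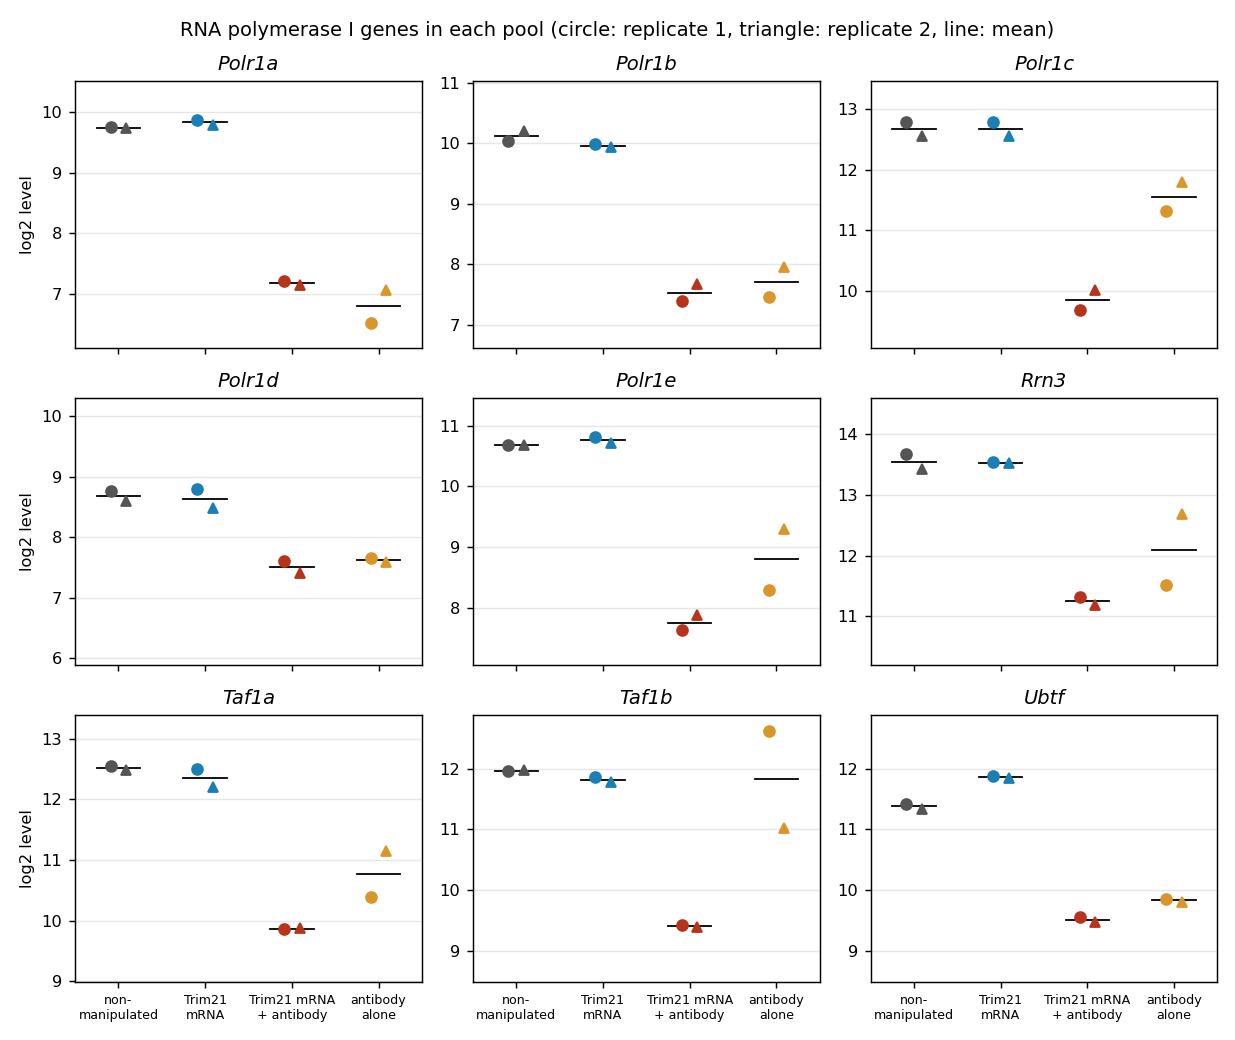
Log2 level (vertical axis, 4.4 units in every panel) of the 9 measured genes in each of the 8 pools, by group, with circles for replicate 1, triangles for replicate 2 and lines for group means. The mRNA plus antibody pools lie below the pools without antibody in every panel, while antibody alone splits for Taf1b, at 12.63 and 11.02.

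As a description, the 250 bases upstream of the genes' RefSeq start sites (GRCm38.p6) were searched for 4 promoter elements, on both strands: CACGTG (the E-box, a site of MYC and USF proteins), CGGAAG (the core of ETS factor sites), TATAAA (the TATA box) and CCAAT (the CCAAT box). No element was shared by most of the 9 measured genes. An E-box lay upstream of 1 gene (6.02% of all 32851 promoter entries) and an ETS core upstream of 2 (13.6%). A CCAAT box lay upstream of 3 (33.8%) and a TATA box upstream of 0 (12.4%). Genes were counted where any of their entries matched, while the shares are per entry. The windows below are shown because they hold the matches and belong to genes with different patterns across the groups, namely Polr1a (lowest with antibody alone), Polr1c (graded), and Rrn3 and Taf1a (spread between the antibody-alone pools). Capitals mark the matches.
Polr1a, chr6:71908803-71909052, + strand: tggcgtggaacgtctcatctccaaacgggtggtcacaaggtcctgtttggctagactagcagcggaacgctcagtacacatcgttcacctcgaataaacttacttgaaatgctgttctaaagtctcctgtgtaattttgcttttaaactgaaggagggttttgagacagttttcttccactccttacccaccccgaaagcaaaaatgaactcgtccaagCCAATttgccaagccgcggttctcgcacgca
Polr1c, chr17:46248046-46248295, − strand: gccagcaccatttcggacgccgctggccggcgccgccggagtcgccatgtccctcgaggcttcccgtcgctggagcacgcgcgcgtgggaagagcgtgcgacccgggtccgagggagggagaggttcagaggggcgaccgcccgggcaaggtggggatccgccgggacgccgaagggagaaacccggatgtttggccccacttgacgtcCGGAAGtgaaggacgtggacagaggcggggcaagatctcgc
Rrn3, chr16:13780449-13780698, + strand: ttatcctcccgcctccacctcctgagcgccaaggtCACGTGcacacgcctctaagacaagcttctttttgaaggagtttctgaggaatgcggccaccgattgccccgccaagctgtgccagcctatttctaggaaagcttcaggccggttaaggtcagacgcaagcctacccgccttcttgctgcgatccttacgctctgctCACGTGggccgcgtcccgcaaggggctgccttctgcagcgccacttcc
Taf1a, chr1:183388635-183388884, + strand: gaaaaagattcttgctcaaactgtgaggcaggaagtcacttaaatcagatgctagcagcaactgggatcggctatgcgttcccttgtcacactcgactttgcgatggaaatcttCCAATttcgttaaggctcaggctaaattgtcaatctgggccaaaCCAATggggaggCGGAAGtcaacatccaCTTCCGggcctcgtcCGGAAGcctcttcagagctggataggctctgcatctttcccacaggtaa
Polr1a holds its CCAAT box 27 to 31 bases before the start, and Polr1c an ETS core 36 to 41 bases before it. Rrn3 has E-boxes at 43 to 48 and 210 to 215 bases, and Taf1a, shown by the first of its 2 overlapping entries, has 3 ETS cores between 44 and 80 bases and CCAAT boxes at 88 to 92 and 132 to 136 bases. The third gene with a CCAAT box was Ubtf, in 1 of its 6 entries. Polr1b, Polr1d, Polr1e and Taf1b held none of the 4 elements in this window. A match describes letters only, and no binding was measured.

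The mRNA plus antibody group against Trim21 mRNA asks what the antibody changed in embryos that also had the injected mRNA. All 9 measured genes were lower, with a median difference of −2.43, against a median of 0.21 over all genes. Of all genes 23.2% were called, 14.5% lower and 8.73% higher, and with the fit limited to the 12725 genes with a mean level of at least 6, which include all 9, 35.2% were called lower (median difference −0.32). The split of the calls moved with the scaling, from 2679 higher and 4447 lower to 3493 and 3707 after quantile normalization and 1357 and 5184 after median centring. Both mRNA plus antibody pools lay below both Trim21 mRNA pools for all 9 genes, and for 26.4% of all genes. Polr1e fell by 3.02 ± 0.31, or 8.08-fold (adjusted p = 0.00071, limma), Polr1c fell by 2.82 ± 0.23 (adjusted p = 0.00026) and Polr1a fell by 2.65 ± 0.20 (adjusted p = 0.00021). The falls of Taf1a (−2.49 ± 0.26), Polr1b (−2.43 ± 0.21), Ubtf (−2.36 ± 0.14) and Rrn3 (−2.28 ± 0.35) were close to each other. Polr1d had the smallest fall, at −1.13 ± 0.17, or 2.18-fold (adjusted p = 0.0042). Taf1b was at −2.42 ± 0.46 (adjusted p = 0.0099), with an SE that pools the spread within all 4 groups. Its antibody-alone pools, which are outside this comparison, were at 12.63 and 11.02. The call no longer passed once the arrays were quantile normalized (−1.64, adjusted p = 0.062) or fitted by cyclic loess (−1.56, adjusted p = 0.084). Nor did it pass without Trim21 mRNA replicate 1 or 2 (adjusted p = 0.067 and 0.059) or replicate 1 or 2 of mRNA plus antibody (0.053 and 0.061). The other 8 calls held under every alternative.

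The columns do not share a distribution, which bears on the size of these falls. After each array was centred on its median the members' median was −2.64 and the median of all genes 0.01. After quantile normalization it was −1.68 and after cyclic loess −1.62, with 8 of 9 genes called under each. Of the 6 measured genes of the 2-cell burst 4 were called higher in this comparison (median 1.78). Of 8 oocyte genes 3 were called higher and 1 lower (median 0.49). Of 22 measured markers of the other cell types 2 were called higher and 0 lower. The part of undivided embryos, and of the groups' days, in the falls was not tested.

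Antibody alone against non-manipulated embryos asks what the antibody did without the mRNA, although injection itself also differs here. Of the 9 genes 8 were called lower, against 7.29% of all genes (2.76% higher, 10.0% called in all). In the fit limited to a mean level of at least 6, 20.2% of genes were called lower. The members' median difference was −1.55, against 0.18 for all genes. The groups did not overlap for those 8, as for 21.5% of all genes, counting those that lay lower. After quantile normalization 1116 genes were higher and 1365 lower, against 846 and 2237. Polr1a fell by 2.95 ± 0.20, or 7.70-fold (adjusted p = 0.0018, limma), and Polr1b fell by 2.42 ± 0.21 (adjusted p = 0.0029). Next were Polr1e (−1.89 ± 0.31), Taf1a (−1.75 ± 0.26) and Ubtf (−1.55 ± 0.14). Polr1c (−1.12 ± 0.23) and Polr1d (−1.06 ± 0.17) fell about 2-fold, and Rrn3 was barely past the threshold (−1.46 ± 0.35, adjusted p = 0.047). Taf1b was at −0.15 ± 0.46 (adjusted p = 0.84; 95% interval −1.23 to 0.94).

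Of these calls 5 held under the 3 normalizations (Polr1a, Polr1b, Polr1e, Taf1a and Ubtf). Rrn3 did not pass after any of them (adjusted p = 0.054 to 0.077), Polr1c not after quantile normalization (0.11) or cyclic loess (0.089), and Polr1d not after quantile normalization (0.054). With only these 2 groups fitted in limma, 0 of the 9 genes and 0 of all genes were called. An unadjusted p under 0.05 was reached by 8 members and by 5814 of all 30701 genes. The smallest adjusted p of a member was 0.065, for Polr1a. Without non-manipulated replicate 1 or 2 the calls left were Polr1a (adjusted p = 0.046 and 0.038) and Polr1b (0.049 and, rounded, 0.05). Without either Trim21 mRNA pool Polr1c (0.069) and Rrn3 (0.10) were lost, and without either mRNA plus antibody pool Rrn3 (0.086). Without antibody-alone replicate 1 all 9 differences were negative, Taf1b at −0.95. Without antibody-alone replicate 2, 8 were negative and Taf1b was at 0.66. Each of these fits keeps 1 antibody-alone pool, so the gap between those pools did not enter its SE. Relative to the mean of the non-manipulated pools the members' median was −2.04 in antibody-alone replicate 1 and −1.37 in replicate 2, while all genes had a median of 0.25 and 0.07. The gap between these pools exceeded 1 for Taf1b (1.61), Rrn3 (1.17) and Polr1e (1.01), and no gap in the other groups exceeded 0.34 among the 9 genes. Of the 2-cell burst genes 2 of 6 were called higher here, and of the oocyte genes 4 of 8. Of the 22 markers of other cell types 1 was called higher and 0 lower. It was the cumulus and granulosa marker Star (0.66 ± 0.14, adjusted p = 0.03), named after its value was seen.

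**Figure D2:**
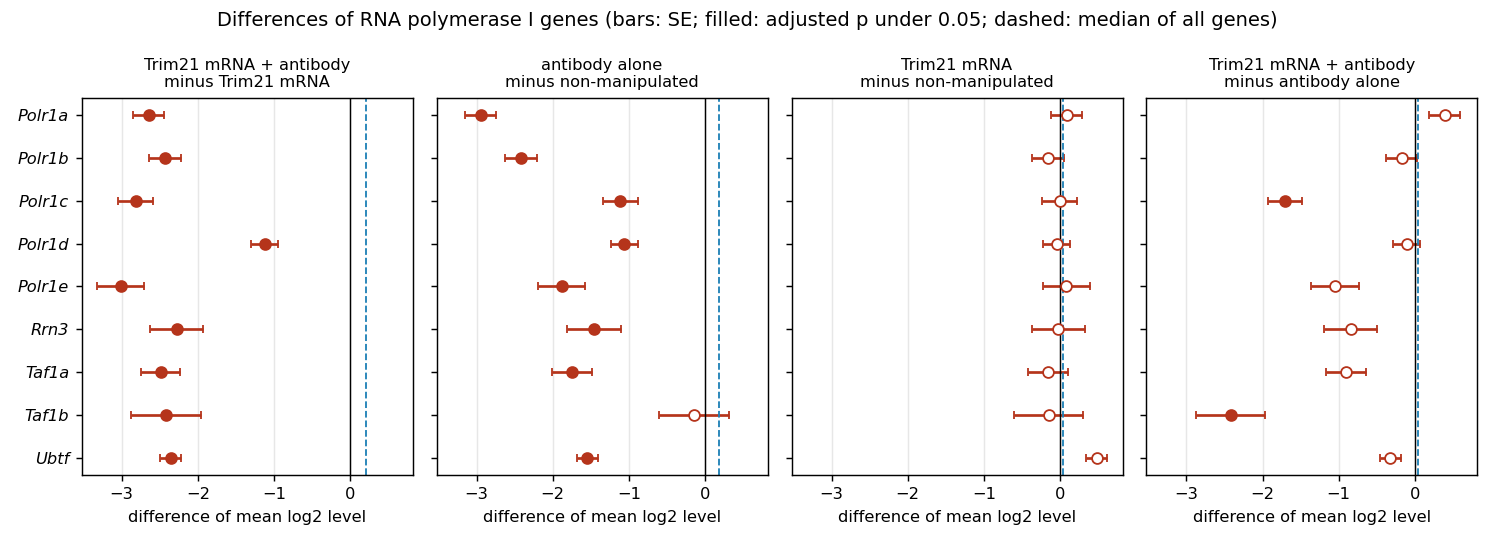
Difference of mean log2 level (horizontal axis) ± SE for the 9 genes in 4 comparisons, with filled points at an adjusted p under 0.05 and a dashed line at the median of all genes. All 9 points are filled for mRNA plus antibody against Trim21 mRNA, 8 for antibody alone against non-manipulated embryos, 0 for Trim21 mRNA against non-manipulated embryos and 2 for mRNA plus antibody against antibody alone.

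**Figure D3:**
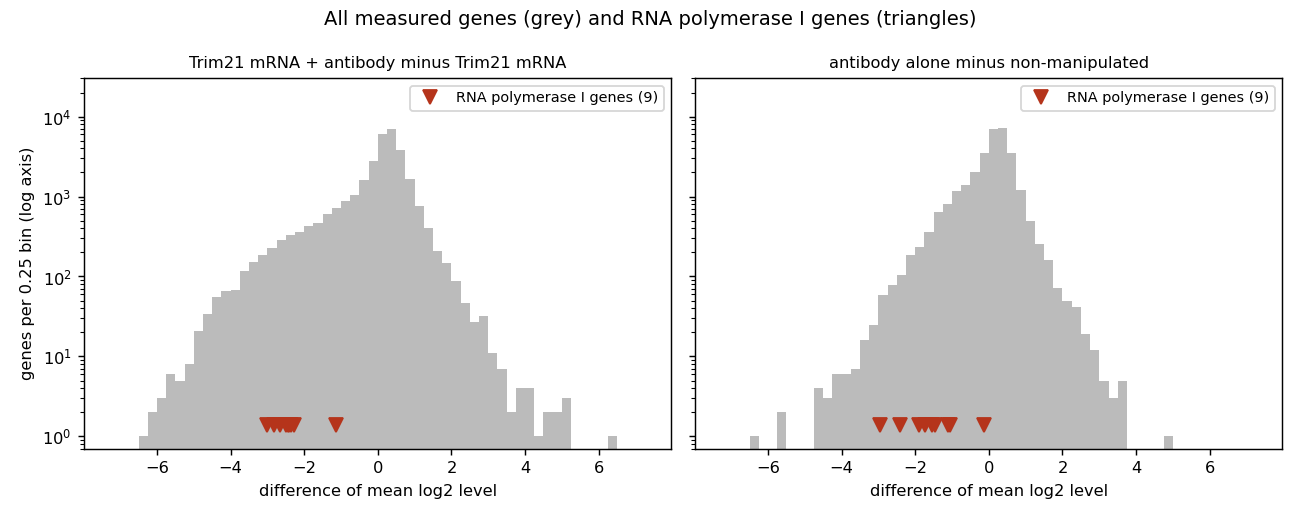
Number of genes (vertical log axis) by difference of mean log2 level (horizontal axis, bins of 0.25) for all 30701 genes, with triangles at the 9 genes and no meaning in their height. The triangles lie between −3.02 and −1.13 for mRNA plus antibody against Trim21 mRNA and between −2.95 and −0.15 for antibody alone against non-manipulated embryos, all left of the median of all genes.

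Trim21 mRNA against non-manipulated embryos asks what injection and the mRNA did without the antibody. Of the 9 genes 0 were called at an adjusted p under 0.05 in limma's fit, and 1 of all genes was (0.00326%), Trim21 itself. The members' median was −0.02 and the differences ran from −0.16 to 0.49. The highest was Ubtf, at 0.49 ± 0.14 (adjusted p = 0.58, unadjusted p = 0.011; 95% interval 0.15 to 0.82), the 1 member with an unadjusted p under 0.05. Of all 30701 genes 1928 had an unadjusted p under 0.05. With only these 2 groups fitted Ubtf had an adjusted p = 0.038, and with array weights 0.012, where it was the 1 member called, but these settings also called 2519 and 3739 of all genes in place of 1.

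The mRNA plus antibody group against antibody alone, which shares its pools with the comparisons above, asks what the mRNA added to the antibody. Polr1c fell by 1.71 ± 0.23 (3.26-fold, adjusted p = 0.0036), a call that held under every alternative. Taf1b fell by 2.42 ± 0.46 (adjusted p = 0.014), but did not pass with quantile normalized arrays (adjusted p = 0.056), after cyclic loess (0.075), with only these groups fitted (0.079), and without replicate 1 or 2 of mRNA plus antibody (0.068 and 0.089). These 2 of 9 genes compare with 10.5% of all genes called lower, 4.37% higher and 14.8% in all (2544 lower and 2436 higher after quantile normalization, against 3216 and 1343). In the fit limited to a mean level of at least 6, 26.7% of genes were called lower, and 4 of the 9 members. The members' median of −0.85 shrank to −0.12 after quantile normalization and −0.05 after cyclic loess. Among the 7 not called in the fit of all genes, Polr1e was at −1.05 ± 0.31, Taf1a at −0.91 ± 0.26 and Rrn3 at −0.85 ± 0.35. Ubtf was at −0.33 ± 0.14, Polr1b at −0.18 ± 0.21 (95% interval −0.67 to 0.32), Polr1d at −0.11 ± 0.17 (−0.52 to 0.30) and Polr1a at 0.39 ± 0.20 (−0.09 to 0.87). Polr1a was called higher after quantile normalization (0.61, adjusted p = 0.035), after cyclic loess (0.72, adjusted p = 0.026) and without antibody-alone replicate 2 (0.66, adjusted p = 0.013). Without antibody-alone replicate 2 and without replicate 1, in that order, Rrn3 was at −0.26 and −1.43, Polr1e at −0.54 and −1.55 and Taf1a at −0.53 and −1.29. The members' median was −0.35 and −1.285 in the same order.

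The interaction, which is the antibody's difference with the mRNA minus that without it, was called for Polr1c alone among the 9 genes, at −1.70 ± 0.32 (adjusted p = 0.038), where 3.46% of all genes were called lower, 0.625% higher and 4.08% in all, and 10.6% lower in the fit limited to a mean level of at least 6, near the share of 1 in 9 (786 lower and 652 higher after quantile normalization, against 1061 and 192). That call held after median centring (adjusted p = 0.047), with the filter on low levels (0.026) and without either antibody-alone pool (0.0075 and 0.014). It ended after quantile normalization (−1.23, adjusted p = 0.11), after cyclic loess (−1.08, adjusted p = 0.17), with a trended prior (0.058), with array weights (0.067) and with the replicate block (0.072). It also ended without any 1 of the other 6 pools (adjusted p = 0.076 to 0.20). Ubtf (−0.81 ± 0.20, adjusted p = 0.083), Taf1b (−2.27 ± 0.65, adjusted p = 0.13) and Polr1e (−1.13 ± 0.44, adjusted p = 0.29) did not pass, and the other 5 had differences from −0.83 to 0.30. Taf1b passed with array weights (adjusted p = 0.031). Without antibody-alone replicate 1 or 2 the members' median was −1.125 and −0.365, against −0.81 with all pools.

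The mRNA plus antibody group against non-manipulated embryos spans all treatments. All 9 genes were lower (16.6% of all genes, with 15.1% higher and 31.7% in all, and 38.6% in the fit limited to a mean level of at least 6), with a median of −2.57 against 0.24 for all genes. None overlapped, where 28.8% of all genes lay lower without overlap. After median centring 2086 genes were higher and 6124 lower, against 4646 and 5096. The differences ran from −2.93 ± 0.31 for Polr1e and −2.82 ± 0.23 for Polr1c to −1.87 ± 0.14 for Ubtf and −1.17 ± 0.17 for Polr1d. In this comparison 7 calls held under every alternative. Polr1d had an adjusted p = 0.068 after quantile normalization, and Taf1b had 0.059 there and 0.067 after cyclic loess. No leave-one-out fit ended any of the 9 calls.

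The rest of the enzyme and its basal factors moved in the same direction. Of 11 such genes 10 were measured. All 10 were called lower in the mRNA plus antibody group against Trim21 mRNA (median −2.35), as were 14.5% of all genes. With antibody alone against non-manipulated embryos all 10 differences were negative (median −0.90). Of these 4 were called lower, as were 7.29% of all genes. Polr2h, a small subunit shared by all nuclear RNA polymerases, was at 12.53 and 12.45 in the non-manipulated pools, 12.18 and 11.97 with Trim21 mRNA, 8.38 and 8.64 with mRNA plus antibody and 11.68 and 12.34 with antibody alone. It fell by 3.57 ± 0.24 with the mRNA present, and its interaction was called (−3.09 ± 0.34, adjusted p = 0.007). Polr2e, another such shared subunit, fell both with the mRNA (−2.05 ± 0.17) and without it (−1.20 ± 0.17). Znrd1, the subunit now named Polr1h, fell in both comparisons (−1.83 ± 0.23 and −1.48 ± 0.23).

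Nucleolar proteins that promote or silence ribosomal RNA transcription form a further list. Of 13 listed 12 were measured. Against Trim21 mRNA 9 were called lower (median −1.52), and 10 differences were negative. With antibody alone 7 were called lower (median −1.01), and 11 differences were negative. In either comparison 0 were called higher. Nolc1, a nucleolar phosphoprotein, fell in both comparisons (−3.90 ± 0.20 and −2.14 ± 0.20). Ncl (nucleolin) did so too, at −3.22 ± 0.23 and −1.01 ± 0.23. Mybbp1a, a nucleolar MYB-binding protein, fell in both comparisons (−3.73 ± 0.27 and −3.42 ± 0.27). The other nuclear polymerases give a comparison by counts. Beside the counts of these lists, 14.5% and 7.29% of all genes were called lower in the 2 comparisons. In the fits limited to a mean level of at least 6 the shares were 35.2% and 20.2%. Of the 7 subunits specific to RNA polymerase II, 4 were called lower against Trim21 mRNA (median −1.58), and all 7 differences were negative. With antibody alone 3 were called lower and 1 higher (median −0.87), and 5 differences were negative. Of 10 measured subunits specific to RNA polymerase III, 7 were called lower (median −2.36) and, with antibody alone, 4 (median −1.29). In each comparison 9 of these 10 differences were negative. Against Trim21 mRNA the smallest p belonged to Polr2d (−3.94 ± 0.19) and Polr2b (−2.74 ± 0.20) in the former list and to Polr3e (−2.90 ± 0.24) and Polr3c (−2.71 ± 0.32) in the latter. With antibody alone it belonged to Polr2a, the largest subunit of its enzyme (−1.57 ± 0.24), Polr2b (−0.99 ± 0.20), Polr3e (−2.01 ± 0.24) and Polr3b, a catalytic subunit (−1.96 ± 0.29). No test compared these lists with each other.

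**Figure D4:**
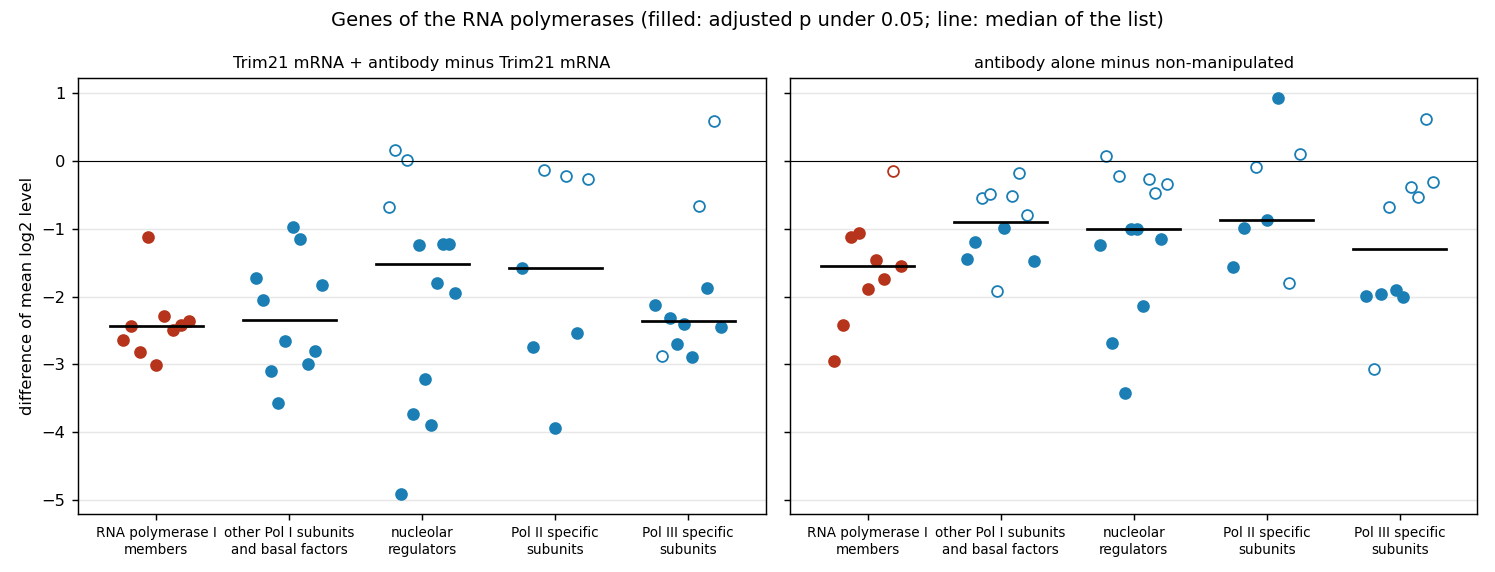
Difference of mean log2 level (vertical axis) of each measured gene of 5 lists in 2 comparisons, with filled points at an adjusted p under 0.05 and a line at each list's median. The 9 RNA polymerase I genes span −3.02 to −1.13 in the left panel and −2.95 to −0.15 in the right, within the span of the other lists.

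The genes whose levels over the 8 arrays followed the mean of the 9 members most closely were Cndp2, Nop2, Tti2, Igf2r and Zfand5, with Pearson's r from 0.9996 to 0.9971 among 17222 genes ranked. These values describe mostly the gap between pools with and without antibody, since the same 8 arrays enter every profile, and carry no test. The members' mean level was 11.29 and 11.22 in the non-manipulated pools, 11.34 and 11.20 with Trim21 mRNA, 8.85 and 8.89 with mRNA plus antibody and 9.51 and 9.82 with antibody alone. Nop2, a ribosomal RNA methyltransferase gene, was at 14.00 and 14.05, 14.02 and 13.97, 10.14 and 10.18, and 11.20 and 11.68 in the same order.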

How the data were processed

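Per the labels, biotinylated cDNA was made with the GeneChip WT Pico kit, and Affymetrix Expression Console was used, per the submitters' processing notes. Its version, its summarisation method and the array's genome build are not given in the labels or notes used here. The deposited values are log2 levels per transcript cluster. The normalization by the authors is not stated. One of 65956 clusters holds a value over 100 in the first column and was dropped. Of the rest 31257 name 1 gene, 1492 several and 33206 none. Genes on several clusters took the one with the highest mean. Symbols, some updated through RefSeq, came from the array annotation. No filter or further normalization was applied.

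A single limma 3.58.1 fit (R 4.3.3, lmFit and eBayes, two-sided) of 4 group means to 8 arrays gave 4 residual and 6.83 total degrees of freedom. It was tested on simulated data. Alternatives were 3 normalizations, a level filter, averaged clusters per gene, a trended and robust prior, array weights, fits of only the groups compared, a block for the replicate number, and leaving out each array. Same-numbered pools did not deviate together (correlations −0.19 to 0.14 across genes), so numbers were not paired. The members, lists and naming rule (all members, the 2 smallest p per list and main comparison, and the 5 closest profiles) were chosen with earlier results of these data known. The number of arrays limits precision.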

Additional observations from a re-analysis of the deposited data

Results flagged for a closer look

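Polr1c was the 1 member called by the interaction term, at −1.70 ± 0.32 on the log2 scale (adjusted p = 0.038, limma). Of all genes 3.46% were called lower, and 10.6% in the fit limited to a mean level of at least 6. The latter is near the share of 1 in 9. Taf1b had a larger difference that was not called (−2.27 ± 0.65, adjusted p = 0.13). The antibody's difference for Polr1c was −2.82 where the mRNA was present and −1.12 where it was not. Polr1c was lower in 2 of 2 pools of each group with antibody. The call ended under 5 of 8 other settings and without any 1 of 6 pools, as given above.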

How the results depend on the processing

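All 9 members were called against Trim21 mRNA and against non-manipulated embryos in the mRNA plus antibody group, and each alternative left 7 to 9 of them. For antibody alone against non-manipulated embryos the 8 calls became 5 after quantile normalization or with array weights and 0 with only these groups fitted. They ranged from 2 to 9 when 1 array was left out. For mRNA plus antibody against antibody alone the 2 calls became 4 with the level filter and 1 with only these groups fitted (1 to 5 with 1 array left out). The 1 interaction call became 0 after quantile normalization or cyclic loess, with a trended prior or with the replicate block (0 to 6 with 1 array left out). For Trim21 mRNA against non-manipulated embryos 0 became 1 with array weights or only these groups fitted, and was 0 without any 1 array.

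Directions turned for values not called as deposited. Taf1b with antibody alone turned from −0.15 to 0.20 after quantile normalization and 0.14 after cyclic loess, and ranged from −0.95 to 0.66 with 1 array left out. For mRNA plus antibody against antibody alone Polr1b turned to 0.16 and 0.20 (−0.42 to 0.07 with 1 array left out), Polr1d to 0.21 and 0.18, and Ubtf to 0.26 and 0.25. The cause was not tested. The count of all genes called moved with the array left out, from 3366 to 14193 against 7126 for mRNA plus antibody against Trim21 mRNA, from 94 to 13791 against 3083 for antibody alone against non-manipulated embryos and from 2490 to 10443 against 4559 between the antibody groups. It moved from 3934 to 17538 against 9742 for mRNA plus antibody against non-manipulated embryos and from 99 to 5663 against 1253 for the interaction, and all the highest counts came without an antibody-alone pool. With array weights the counts were 11945, 1177, 2001 and 15734 in the first 4 of these, and with only the groups compared 10891, 0, 1408 and 14701. The level filter gave 6244 calls among 12725 genes tested, against 9742 among 30701, so these counts are not on the same base. The shares of genes called carry the ranges of the other settings. With the replicate block the antibody-alone calls of Polr1c (adjusted p = 0.052) and Rrn3 (0.072) ended, and beside that of Polr1c in the interaction no other call of a member did.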

Other observations

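The cluster that names Taf1d together with Mir7650 and Gm25500 stood at 11.33 and 11.37 in the non-manipulated pools, 11.18 and 11.08 with Trim21 mRNA, 9.68 and 9.45 with mRNA plus antibody, and 10.30 and 11.23 with antibody alone. Its signal cannot be assigned to one of these genes and was not tested.

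Ttf1, the transcription terminator of RNA polymerase I, split between the antibody-alone pools as Taf1b did, with the same replicate above the pools without antibody. Its levels were 10.92 and 9.32 with antibody alone, against 10.17 to 10.42 without antibody and 7.37 and 7.19 with mRNA plus antibody. Ubtfl1, a relative of Ubtf expressed in the early mouse embryo, stood at 12.87 and 13.28 with antibody alone and at 10.91 and 12.03 with mRNA plus antibody, against 13.34 to 13.49 without antibody. Polr2g, of RNA polymerase II, was higher with antibody alone, at 12.50 and 12.73 against 11.57 and 11.81 in non-manipulated embryos (0.93 ± 0.20, adjusted p = 0.033, limma). These genes were picked after their values were seen.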
